A study of Homo sapiens with 12 samples.

Results

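Genes of cell division and genome maintenance, TRIP13, SKP2, RAD1, MELK, KIF24 and FANCG, were followed through 12 RNA-seq libraries of HaCaT cells. The 6 were taken by symbol from a fixed list, which was chosen with earlier results of these data known. All 6 were found among the 61498 Ensembl entries of the count tables and passed the filter on low counts that 10800 entries passed. TRIP13 unfolds HORMA-domain proteins such as the spindle checkpoint protein MAD2, SKP2 is the F-box subunit that brings the cyclin-dependent kinase inhibitor p27 to the SCF ubiquitin ligase, and RAD1 forms the DNA damage checkpoint clamp with RAD9 and HUS1. MELK is a serine/threonine kinase abundant in dividing cells, KIF24 is a kinesin that removes microtubules at the centriole and holds back cilium growth, and FANCG is a subunit of the Fanconi anaemia core complex, which acts in the repair of DNA interstrand crosslinks.

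HaCaT is an established line of human keratinocytes. It was used as 4 derivatives carrying a short hairpin RNA against MLL1 (shMLL1; its gene, KMT2A, codes for an enzyme that methylates histone H3), UTX (shUTX; KDM6A, an enzyme that removes methyl groups from histone H3) or NRF2 (shNRF2; NFE2L2, a transcription factor of the antioxidant response), or a control hairpin (shControl, given the genotype WT in the labels). Each derivative was sequenced untreated, after 24 h in 100 µM hydrogen peroxide (H2O2) and after 24 h with 25 µg/mL cerium oxide nanoparticles (CeO2), with 1 library for each of the 12 combinations. The hairpin vectors, and whether a derivative is a clone or a pool, are not stated in the labels, and all cells of a derivative share its history. The 3 libraries of a derivative differ in treatment, so an SD over them covers treatment as well as chance. Nothing in the labels says that the libraries come from separate cultures, so p-values measure only the spread among these libraries.

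Genes of the cell cycle are commonly transcribed in waves. Factors of the E2F family act early in the cycle, while the DREAM and MMB complexes act on later genes through CHR elements and the CCAAT boxes often found beside them. In oxidative stress, DNA damage and arrest of division lower the RNA of many such genes, and in bulk RNA fewer dividing cells and less RNA per cell cannot be told apart.

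Over most of the table, gene names and reads did not match. Of 708 genes that every cell uses, 412 had a mean under 1 CPM (counts per 1000000 reads) and 207 had no count in any library. Names were therefore read only in 4 chromosome stretches in which every one of the 33 such genes reached 30 CPM. The stretches were found from the levels of these same genes, so that count is no separate check. Of the other coding entries, 66.37% reached a mean of 1 CPM inside the stretches and 32.79% outside. TRIP13, RAD1 and SKP2 lie in the chromosome 5 stretch (137 entries tested) and KIF24, FANCG and MELK in the chromosome 9 stretch (102 entries tested). Total counts ran from 5388335 to 7670446 a library, and the mitochondrial share from 7.41% to 10.01%. The TMM factor, which scales library size, was 0.914 in the untreated shControl library and 0.967 to 1.045 in the others. Of 10 keratinocyte markers, AQP3 alone lay in a matched stretch, at 197 to 406 CPM; the other 9 lie outside, with KRT14 at 45.1 to 70.7 CPM, KRT17 at 15.1 to 32.9 CPM, SFN at 18 to 38 counts, TP63 at 0 to 6 counts, and KRT5, KRT6A, DSG3, DSC3 and ITGB4 listed at 0 counts. Of 7 markers of other cells, all in matched stretches, PAX5, CD72, TEK, SLC45A2 and C7 had at most 5 counts, while IL7R had 222.5 to 620.1 CPM and FYB1 188 to 687 CPM, and their part in the results was not tested. The targeted genes also lie outside the matched stretches. The KMT2A entry had 32.9, 96.6 and 34.6 CPM in untreated, H2O2 and CeO2 shMLL1 cells, against 509, 472 and 474 CPM in shControl cells. The KDM6A entry had 1, 0 and 1 counts in shUTX cells and 6, 5 and 6 in shControl cells, and the NFE2L2 entry 0, 0 and 0 counts in shNRF2 cells and 1, 12 and 16 in shControl cells, too few for a check of those labels.

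The promoters of 3 genes are printed because they belong to the pair of genes whose levels ran most closely together (TRIP13 and RAD1) and to the gene that stood apart in the exposures (KIF24). Each window holds 250 bases before and 50 bases after the RefSeq start site (GRCh38.p14), read 5′ to 3′ on the gene's strand: chr5:892634-892933 on the plus strand for TRIP13, chr5:34915455-34915754 on the minus strand for RAD1 and chr9:34329219-34329518 on the minus strand for KIF24. The KIF24 window lies outside the extent of the gene in the GENCODE 29 annotation used for its coordinates below. Capitals mark CHR elements (TTTGAA or TTCGAA) and CCAAT boxes (CCAAT, read as ATTGG from the other strand).
TRIP13: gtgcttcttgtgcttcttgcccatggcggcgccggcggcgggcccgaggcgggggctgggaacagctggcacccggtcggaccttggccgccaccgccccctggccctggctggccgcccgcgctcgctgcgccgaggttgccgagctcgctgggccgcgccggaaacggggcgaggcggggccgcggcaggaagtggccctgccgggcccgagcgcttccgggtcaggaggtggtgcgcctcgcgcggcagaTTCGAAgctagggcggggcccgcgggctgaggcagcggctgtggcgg
RAD1: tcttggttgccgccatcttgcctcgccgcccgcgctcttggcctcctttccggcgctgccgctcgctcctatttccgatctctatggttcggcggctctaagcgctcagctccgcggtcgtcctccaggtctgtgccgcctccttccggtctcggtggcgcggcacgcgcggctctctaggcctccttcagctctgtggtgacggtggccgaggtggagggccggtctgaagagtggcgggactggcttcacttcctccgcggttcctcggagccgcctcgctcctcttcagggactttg
KIF24: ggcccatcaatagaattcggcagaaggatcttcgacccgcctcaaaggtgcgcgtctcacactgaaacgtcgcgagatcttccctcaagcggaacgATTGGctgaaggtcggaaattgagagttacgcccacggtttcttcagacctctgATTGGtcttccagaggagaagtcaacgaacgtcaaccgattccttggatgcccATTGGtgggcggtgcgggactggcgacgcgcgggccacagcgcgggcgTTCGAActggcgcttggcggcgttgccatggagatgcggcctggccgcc
All 6 genes had a promoter in the table. TRIP13 held 1 CHR element, 4 bases past its start site. KIF24 held 1 CHR element 2 bases past its start site, and 3 CCAAT boxes on the other strand, beginning at positions -154, -100 and -47 relative to it. Neither motif, and none of the E2F motifs GGCGGGAA, GGCGCCAA and GCGCGAAA, was found on either strand in the windows of SKP2, RAD1, MELK and FANCG, and the E2F motifs were not found in TRIP13 or KIF24. Among all 35116 promoters of the table, 34.61% held a CCAAT box, 16.35% a CHR element and 4.582% an E2F motif. A match of letters is a description of the window only.

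Per length of exon, MELK, SKP2 and TRIP13 were the most abundant of the 6 transcripts. Mean levels over the 12 libraries were 128 ± 14.1 RPKM (reads per kilobase of exon and 1000000 reads, SD, n = 12) for MELK, 124 ± 16.5 RPKM for SKP2, 109.5 ± 21.4 RPKM for TRIP13, 55.7 ± 5.52 RPKM for FANCG, 29.4 ± 5.60 RPKM for RAD1 and 14.6 ± 1.94 RPKM for KIF24. The SDs of MELK, SKP2 and TRIP13 overlap, so their order by mean is not resolved. Within libraries MELK lay above TRIP13 in all 12, while the place of SKP2 varied (in shUTX cells TRIP13 averaged 134 RPKM and SKP2 119 RPKM). Each of the others was separate from its neighbours. The highest library exceeded the lowest by 1.84 times for TRIP13 and 1.79 times for RAD1, against 1.34 times for FANCG and 1.38 times for MELK. The extents of RAD1 and of BRIX1, a ribosome assembly gene on the other strand, overlap by 3614 bases, introns included. How much of this is exon was not measured. Since the use of strand in counting is not given, reads of RAD1 may not be cleanly told from those of BRIX1. By the same measure of whole extents, TRIP13 overlaps BRD9 by 182 bases and KIF24 overlaps UBAP1 by 143 bases, both on the other strand.

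**Figure D1:**
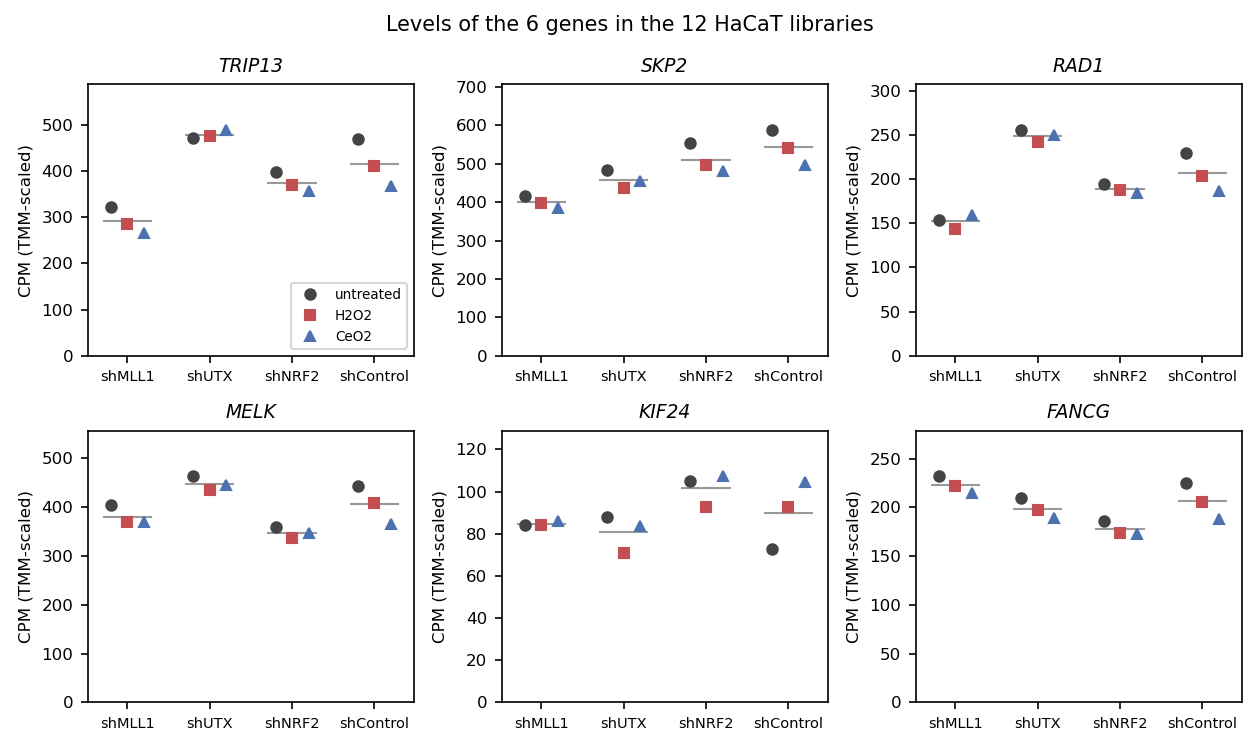
Level of each gene in TMM-scaled CPM (y axis, from 0) in the 4 derivatives (x axis); points are single libraries by treatment, and the grey line is their mean. TRIP13 and RAD1 are lowest in shMLL1 and highest in shUTX, SKP2 is lowest in shMLL1, and KIF24 in shControl cells is lowest in the untreated library.

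In shMLL1 cells the 3 genes on chromosome 5 were lower than in shControl cells, and the 3 on chromosome 9 did not pass the test. The first was the spindle checkpoint gene TRIP13 (ENSG00000071539, chr5:892643-919357, plus strand), with 322, 285 and 266 CPM in untreated, H2O2 and CeO2 shMLL1 cells, against 469.6, 411 and 368 CPM in shControl cells. Every shMLL1 library lay below every shControl library. TRIP13 fell by 0.51 ± 0.08 on the log2 scale (SE; edgeR adjusted p = 0.000716), which is 1.43 times lower. Its overlapping partner BRD9 also fell, by 0.71 ± 0.08 (adjusted p = 3.81e-05).

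SKP2 (ENSG00000145604, chr5:36151989-36184319, plus strand) had 415, 399 and 383 CPM in shMLL1 cells, against 588, 541 and 497 CPM in shControl cells in the same order of treatments. The groups did not overlap, and SKP2 fell by 0.44 ± 0.07 (adjusted p = 0.000800). RAD1 (ENSG00000113456, chr5:34905264-34918989, minus strand) had 154, 143 and 159.7 CPM in shMLL1 cells, against 229, 203 and 187 CPM in shControl cells. Again no library of one group reached the other, and RAD1 fell by 0.44 ± 0.08 (adjusted p = 0.00262). Its overlapping partner BRIX1 had a log2 change of -0.23 and did not pass (adjusted p = 0.141). How many reads of each pair came from which gene was not tested.

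On chromosome 9, MELK (ENSG00000165304, chr9:36572862-36677683, plus strand) had 405, 369 and 369 CPM in shMLL1 cells, against 443, 409 and 365 CPM in shControl cells. The groups overlapped, with a log2 change of -0.09 ± 0.07 (adjusted p = 0.497). KIF24 (ENSG00000186638, chr9:34252381-34311371, minus strand) had 84.0, 84.1 and 86.0 CPM in shMLL1 cells, against 72.7, 92.5 and 105 CPM in shControl cells. All 3 shMLL1 values lay within the shControl range (log2 change -0.08 ± 0.12, adjusted p = 0.707). FANCG (ENSG00000221829, chr9:35073835-35080016, minus strand) had 232, 222 and 215 CPM in shMLL1 cells, against 225, 206 and 188 CPM in shControl cells. It was higher in shMLL1 cells under each of the 3 treatments, but the groups overlapped (log2 change 0.12 ± 0.07, adjusted p = 0.346).

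Thus 3 of 6 genes were called lower and 0 higher in shMLL1 cells, where 12.2% of all entries tested were called, 5.38% of all higher and 6.84% lower. The chromosome 5 stretch as a whole lay lower in shMLL1 cells: 68 of its 137 entries (49.64%) were called lower and 8 higher, with a median log2 change of -0.44, against 0.01 over all entries tested and 0.05 over the chromosome 9 stretch. TRIP13 thus stood 0.07 below the median of its stretch, and SKP2 and RAD1 stood at it. With libraries scaled to the entries of the chromosome 5 stretch, a choice made after seeing the data, none of the 3 passed the threshold: TRIP13 had a log2 change of -0.13 (adjusted p = 0.213), RAD1 -0.05 (adjusted p = 0.612) and SKP2 -0.06 (adjusted p = 0.529).

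The shift of the stretch ran through its first 3 blocks of 34 entries, counted from the tip of the short arm, with median log2 changes of -0.53, -0.46 and -0.54. The last 35 entries had a median of 0.08. TRIP13 lies in the first block and RAD1 and SKP2 in the third. Within treatments, the median of the 137 entries was -0.49 between the untreated shMLL1 and shControl libraries, -0.41 between the H2O2 libraries and -0.38 between the CeO2 libraries. Whether the 3 genes fell as part of a change of the whole segment or for reasons of their own was not tested.

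**Figure D2:**
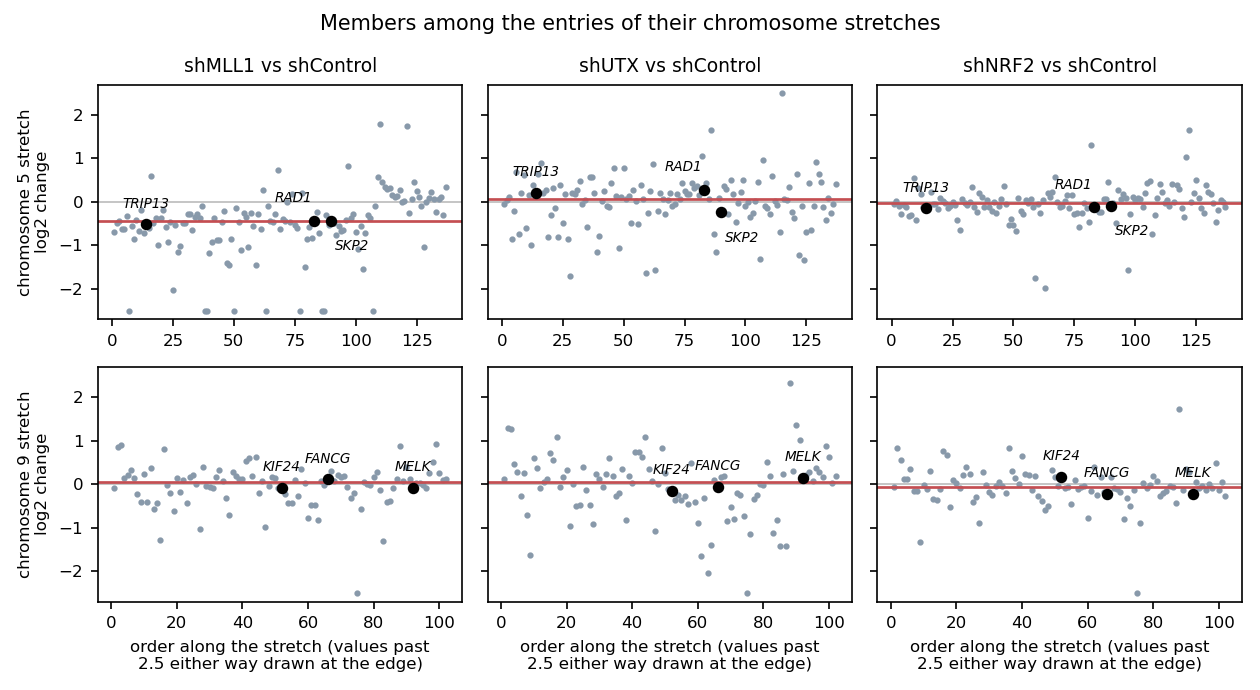
Log2 change of every tested entry of the chromosome 5 stretch (top) and the chromosome 9 stretch (bottom), in order along the chromosome (x axis), for each knockdown against shControl; grey dots are entries, black dots the 6 genes, and the red line the stretch's median. In shMLL1 cells most of the chromosome 5 entries lie near the median of -0.44, together with TRIP13, RAD1 and SKP2, up to the last block of entries, which lies near 0.

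In shUTX cells, RAD1 was higher and SKP2 lower than in shControl cells, so that genes of the same chromosome 5 stretch differed in direction. RAD1 had 256, 242 and 249 CPM in untreated, H2O2 and CeO2 shUTX cells, all above the 229, 203 and 187 CPM of shControl cells, with a log2 change of 0.27 ± 0.08 (adjusted p = 0.0221). BRIX1, whose extent overlaps that of RAD1, was also called higher, with a log2 change of 0.43 (adjusted p = 0.00390). SKP2 had 484, 436 and 454 CPM in shUTX cells, all below the 588, 541 and 497 CPM of shControl cells, and fell by 0.24 ± 0.07 (adjusted p = 0.0216).

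These 2 genes were the calls among the 6, 1 in each direction, where 26.3% of all entries were called, 12.6% higher and 13.7% lower. Both calls were close to the threshold. Fitted on the shUTX and shControl libraries alone, they were lost (adjusted p = 0.179 for RAD1 and 0.203 for SKP2). The RAD1 call was also lost without the CeO2 shControl library (adjusted p = 0.0910) and without any 1 shUTX library (adjusted p = 0.0623 to 0.109). The SKP2 call was lost without the H2O2 shControl, the untreated shUTX or the H2O2 shUTX library (adjusted p = 0.0656, 0.0711 and 0.0926). With no filter the RAD1 call was lost (adjusted p = 0.0702), and with the length trend removed the SKP2 call was lost (0.117). The median log2 change of the chromosome 5 stretch was 0.06, and with libraries scaled to that stretch both calls were kept (adjusted p = 0.0490 for RAD1 and 0.00594 for SKP2).

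TRIP13 had 471.5, 475 and 489 CPM in shUTX cells, above the 469.6, 411 and 368 CPM of shControl cells without overlap, by a margin of under 1% between the untreated libraries. Its log2 change of 0.21 ± 0.08 did not pass (adjusted p = 0.0713), but did without the untreated shControl (0.0138) or the untreated shUTX library (0.0442) and with a smooth trend of level with exon length removed (0.0106). Its partner BRD9 was called higher, by 0.40 (adjusted p = 0.00174). MELK had 463, 436 and 446 CPM in shUTX cells, against 443, 409 and 365 CPM in shControl cells, and its log2 change of 0.15 ± 0.07 did not pass either (adjusted p = 0.158), except with the length trend removed (0.0293). KIF24 had 87.8, 70.7 and 83.6 CPM and FANCG 209.8, 197 and 189 CPM in shUTX cells. Both overlapped shControl, with log2 changes of -0.16 ± 0.12 (adjusted p = 0.359) and -0.05 ± 0.07 (adjusted p = 0.653). Without the untreated shControl library, the lowest of the 3 shControl libraries for this gene, KIF24 was called lower both in shUTX cells (log2 change -0.33, adjusted p = 0.00664) and in shMLL1 cells (-0.26, adjusted p = 0.0446).

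None of the 6 genes passed the test between shNRF2 and shControl cells, where 5.33% of all entries were called, 2.78% higher and 2.56% lower. By unadjusted p, 2172 of 10800 entries and 2 of the 6 genes were under 0.05 in this contrast, and DESeq2 and limma-voom also called none of the 6. MELK had 359, 337 and 346 CPM in untreated, H2O2 and CeO2 shNRF2 cells, all below the 443, 409 and 365 CPM of shControl cells, with a log2 change of -0.22 ± 0.07 (unadjusted p = 0.00962, adjusted p = 0.102). FANCG had 186, 173 and 173 CPM in shNRF2 cells, all below the 225, 206 and 188 CPM of shControl cells, with a log2 change of -0.21 ± 0.07 (unadjusted p = 0.0106, adjusted p = 0.107). Without the CeO2 shControl library MELK was called lower (log2 change -0.29, adjusted p = 0.0320).

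TRIP13 had 397, 370.2 and 356 CPM, RAD1 195, 187 and 184 CPM and SKP2 553.5, 496 and 479.5 CPM in shNRF2 cells. Each was below shControl under all 3 treatments, with overlapping libraries and log2 changes of -0.15 ± 0.08, -0.13 ± 0.08 and -0.09 ± 0.07 (adjusted p = 0.332, 0.414 and 0.520). KIF24 had 105, 92.7 and 107 CPM in shNRF2 cells, above shControl under all 3 treatments, with a log2 change of 0.18 ± 0.12 that did not pass (adjusted p = 0.420).

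**Figure D3:**
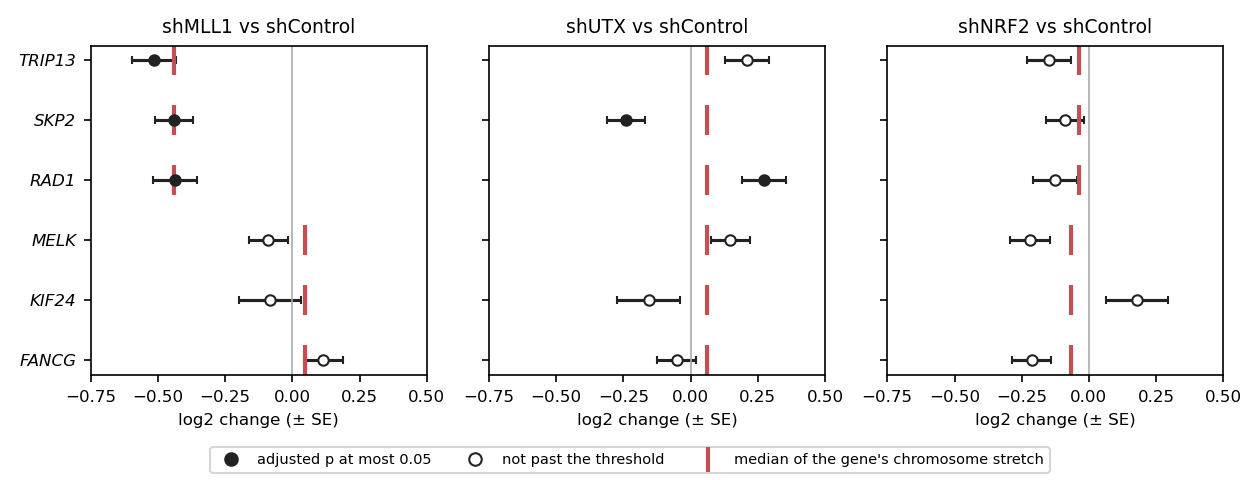
Log2 change of the 6 genes (x axis, ± SE) in shMLL1, shUTX and shNRF2 cells against shControl cells; filled circles passed the threshold of 0.05 on the adjusted p, open circles did not, and red bars mark the median of the gene's chromosome stretch. In shMLL1 cells the filled points of TRIP13, SKP2 and RAD1 lie on or near the bar at -0.44, while in shUTX cells SKP2 and RAD1 lie on opposite sides of the bar at 0.06.

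Set against each other, the shUTX and shMLL1 derivatives differed more in TRIP13 and RAD1 than either did from shControl. TRIP13 was higher in shUTX than in shMLL1 cells by 0.72 ± 0.08 on the log2 scale (adjusted p = 2.52e-05) and RAD1 by 0.71 ± 0.08 (adjusted p = 3.01e-05), which is 1.65 and 1.64 times. Both calls were kept without any 1 of the 12 libraries. Scaled to the chromosome 5 stretch, both were still called but smaller, at 0.29 for TRIP13 (adjusted p = 0.0101) and 0.27 for RAD1 (adjusted p = 0.00965). MELK was higher in shUTX cells by 0.24 ± 0.07 (adjusted p = 0.0385), but lost the call in 8 of 12 omissions of 1 library, with plain totals (adjusted p = 0.0582), with no filter (0.0786), with DESeq2 (0.0555) and scaled to the chromosome 9 stretch (0.0768). BRIX1 was higher by 0.66 (adjusted p = 0.000211) and BRD9 by 1.11 (adjusted p = 3.94e-07), each overlapping a gene called in the same direction. SKP2, with a log2 change of 0.20 ± 0.07, did not pass (adjusted p = 0.0688), although it was called in the fit to the compared libraries (adjusted p = 0.0229) and without the untreated or the CeO2 shControl library (0.0143 and 0.0472). FANCG (-0.17) was called lower with plain totals (adjusted p = 0.0304) and scaled to the chromosome 9 stretch (0.020) and without the untreated shControl library (0.0492), and otherwise did not pass, and KIF24 (-0.07) did not pass. So 3 of 6 genes were called, all higher, where 18% of all entries were called, 8.5% higher and 9.46% lower. In the chromosome 5 stretch 54.74% of entries were called higher in shUTX than in shMLL1 cells, with a median log2 change of 0.56, so SKP2 lay 0.36 below its surroundings. Scaled to that stretch, SKP2 was called lower in shUTX cells (log2 change -0.24, adjusted p = 0.0113).

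Between shNRF2 and shMLL1 cells, the genes on chromosome 5 were higher in shNRF2 cells: TRIP13 by 0.37 ± 0.08 (adjusted p = 0.00942), SKP2 by 0.35 ± 0.07 (adjusted p = 0.00475) and RAD1 by 0.31 ± 0.08 (adjusted p = 0.0249). FANCG fell by 0.33 ± 0.07 in shNRF2 cells relative to shMLL1 cells (adjusted p = 0.00863), with 186, 173 and 173 CPM in shNRF2 cells and 232, 222 and 215 CPM in shMLL1 cells. It was the 1 call on chromosome 9, where the median of the stretch was -0.05. MELK, with a log2 change of -0.13 ± 0.07, did not pass (adjusted p = 0.294). KIF24 was higher in shNRF2 cells without overlap of libraries, but its log2 change of 0.26 ± 0.12 did not pass (adjusted p = 0.176). It was called in the fit to the compared libraries (adjusted p = 0.0321) and without the untreated shControl library (0.0164). Of all entries 11.3% were called, 6.67% higher and 4.62% lower. The chromosome 5 stretch had a median of 0.38, with 48.91% of its entries called higher and 5.11% lower. Scaled to that stretch, none of its 3 genes passed. Single omissions that ended a call were the CeO2 shMLL1 library for FANCG (adjusted p = 0.0691), the untreated shMLL1 library for SKP2 (0.0526), the H2O2 or CeO2 shMLL1 library for TRIP13 (0.0561 and 0.0815), and 5 of 12 libraries for RAD1 (the untreated and H2O2 shMLL1 libraries and each shNRF2 library, 0.0649 to 0.153).

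Between shNRF2 and shUTX cells, RAD1 fell by 0.40 ± 0.08 (adjusted p = 0.00235), MELK fell by 0.37 ± 0.07 (adjusted p = 0.00219) and TRIP13 fell by 0.36 ± 0.08 (adjusted p = 0.00533) in shNRF2 cells. These were 3 of 6 genes, where 23.4% of all entries were called, 12.7% higher and 10.7% lower. In the chromosome 5 stretch 13.87% of entries were called higher and 28.47% lower. In the chromosome 9 stretch 19.61% were called higher and 29.41% lower. The MELK values were 359, 337 and 346 CPM in shNRF2 cells and 463, 436 and 446 CPM in shUTX cells, without overlap, and the call was kept without any 1 library, as was that of RAD1. TRIP13 lost its call without the CeO2 shUTX library (adjusted p = 0.0573). KIF24 was higher in all 3 shNRF2 libraries, with a log2 change of 0.33 ± 0.12 just short of the threshold (adjusted p = 0.0513), and was called with RLE scaling (adjusted p = 0.0490) and by limma-voom (adjusted p = 0.0456), and SKP2 (0.15) and FANCG (-0.16) did not pass. In the fit to the compared libraries KIF24 (adjusted p = 7.20e-05), SKP2 (0.00351) and FANCG (0.0119) were all called. SKP2 was also called with plain totals (0.0238) and scaled to the chromosome 5 stretch (0.0135), and KIF24 with plain totals (0.0471), both other filters (0.0269 and 0.0392) and scaled to the chromosome 9 stretch (0.0175). Without the untreated shControl library KIF24 (0.00169) and FANCG (0.0479) were called. BRIX1 fell by 0.59 (adjusted p = 0.000454) and BRD9 fell by 0.51 (adjusted p = 0.000284). The stretch medians were -0.07 on chromosome 5 and -0.16 on chromosome 9. These comparisons share libraries with those against shControl and are not independent of them.

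In order of mean level, TRIP13 had 478.5 ± 9.34 CPM in shUTX, 374 ± 21.01 CPM in shNRF2 and 291 ± 28.9 CPM in shMLL1 cells, against 416 ± 51.1 CPM in shControl cells (SD, n = 3 each). RAD1 had 249 ± 6.75 CPM in shUTX, 189 ± 5.52 CPM in shNRF2 and 152 ± 8.41 CPM in shMLL1 cells, against 206 ± 21.4 CPM in shControl cells. For both genes the shControl mean stood between those of shUTX and shNRF2. For TRIP13 neither neighbouring pair above shMLL1 passed the test. For RAD1 the shUTX and shControl pair did and the shControl and shNRF2 pair did not. For both genes the step from shNRF2 to shMLL1 passed. SKP2 was ordered otherwise, with 399 ± 15.8 CPM in shMLL1, 458 ± 24.5 CPM in shUTX, 509.6 ± 38.9 CPM in shNRF2 and 542 ± 45.5 CPM in shControl cells, and no neighbouring pair passed. MELK was lowest in shNRF2 (347 ± 11.4 CPM) and highest in shUTX cells (448 ± 13.9 CPM). FANCG was lowest in shNRF2 (177 ± 7.72 CPM) and highest in shMLL1 cells (223 ± 8.53 CPM), and KIF24 was lowest in shUTX (80.7 ± 8.93 CPM) and highest in shNRF2 cells (102 ± 7.82 CPM). In the orders of these 3 genes no neighbouring pair passed.

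Neither exposure changed any of the 6 genes by the test across the 4 derivatives. After H2O2 all 6 log2 changes were below 0, at -0.12 ± 0.07 for TRIP13, -0.12 ± 0.06 for SKP2, -0.10 ± 0.07 for RAD1, -0.11 ± 0.06 for MELK, -0.04 ± 0.10 for KIF24 and -0.10 ± 0.06 for FANCG (adjusted p = 0.288 to 0.869). No entry of the 10800 was called (0%) by edgeR or by limma-voom, although 2102 had an unadjusted p under 0.05, and DESeq2 called 152. After CeO2, 5 of 6 changes were below 0, from -0.18 ± 0.07 for TRIP13 to -0.09 ± 0.07 for RAD1, and KIF24 was at 0.13 ± 0.10 (adjusted p = 0.227 to 0.521). Of all entries 2 were called, or 0.0185%, 1889 had an unadjusted p under 0.05, and DESeq2 called 44 and limma-voom 0. DESeq2 and limma-voom called none of the 6 in either contrast. Medians of all entries tested were 0.02 after H2O2 and 0.00 after CeO2, and those of the stretches lay between -0.09 and -0.05. Among the 6, unadjusted p was under 0.05 for 0 after H2O2 and for 3 after CeO2 (TRIP13, SKP2 and FANCG). A p that misses the threshold does not show that levels were equal.

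**Figure D4:**
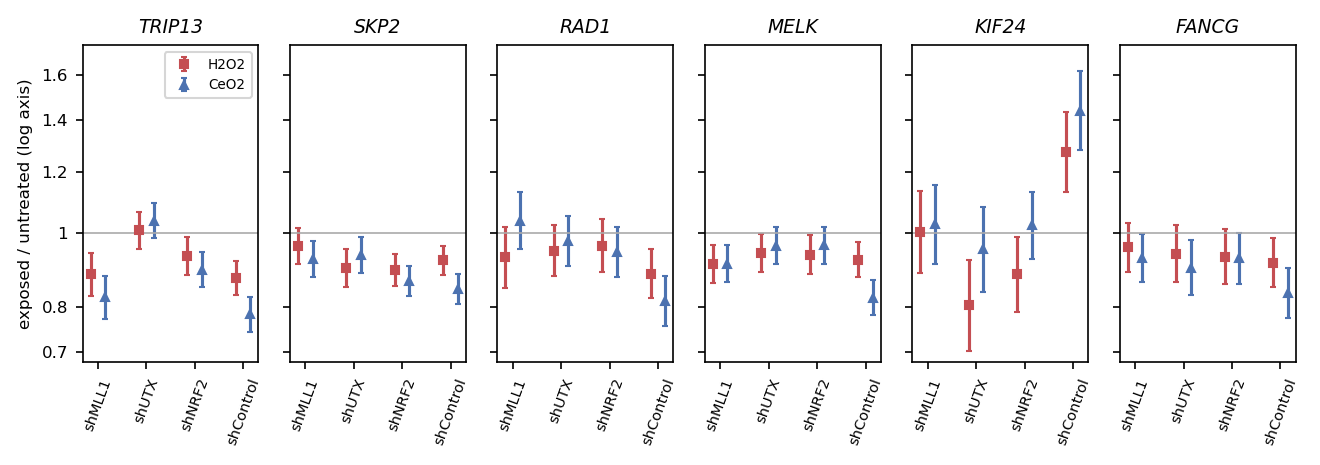
Level in exposed over untreated cells of the same derivative (y axis, log scale) for each gene, with exact 95% intervals that cover counting error only; squares are H2O2 and triangles CeO2. Most ratios lie between 0.8 and 1, and the shControl ratios of KIF24 stand above all others.

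Within derivatives, where a ratio rests on 1 library a side and carries no test, TRIP13 in CeO2 cells was at 0.824 (95% interval 0.774 to 0.877) of the untreated level in shMLL1, 1.04 (0.984 to 1.09) in shUTX, 0.896 (0.850 to 0.944) in shNRF2 and 0.783 (0.743 to 0.826) in shControl cells. In shUTX cells, then, the interval included 1, and in the other 3 derivatives it lay below 1. RAD1 in CeO2 cells was at 0.815 (0.757 to 0.878) in shControl cells and between 0.945 and 1.04 in the knockdown derivatives. MELK in CeO2 cells was at 0.824 (0.781 to 0.869) in shControl cells and between 0.911 and 0.963 in the others. FANCG was at 0.836 (0.776 to 0.901) in CeO2 shControl cells and between 0.901 and 0.927 in the others. For SKP2 all 8 ratios lay between 0.845 and 0.961.

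The ratios within shControl rest on its untreated library, whose TMM factor was the lowest. With plain library totals the H2O2 ratio in shControl cells was 1.03 for SKP2, 1.03 for MELK and 1.02 for FANCG, against 0.920, 0.923 and 0.914 with TMM scaling, so the direction of these small changes turned with the scaling. The CeO2 ratio in shControl cells was 0.956 for FANCG, 0.942 for MELK and 0.932 for RAD1 with plain totals. In shMLL1, shUTX and shNRF2 cells it was then 0.979, 0.906 and 0.935 for FANCG. It was 0.9625, 0.968 and 0.972 for MELK, and 1.09, 0.981 and 0.953 for RAD1. FANCG was thus no longer lowest in shControl cells, while MELK and RAD1 still were. With plain totals the CeO2 ratio of TRIP13 was 0.896 in shControl and 0.870 in shMLL1 cells. That of SKP2 was 0.966 in shControl and 0.874 in shNRF2 cells. TRIP13 and SKP2 were thus also no longer lowest in shControl cells. In the contrasts of exposure response of shMLL1, shUTX and shNRF2 cells with shControl cells, the median log2 difference of all entries was -0.12, -0.18 and -0.19 with plain totals, against -0.02 in each with TMM scaling.

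KIF24 behaved differently from the other 5 genes in shControl cells. Its counts were 693 after H2O2 and 750 after CeO2, against 469 untreated, which gave ratios of 1.27 (1.13 to 1.43) and 1.44 (1.28 to 1.62). In shMLL1 cells the H2O2 and CeO2 ratios were 1.00 (0.887 to 1.13) and 1.03 (0.912 to 1.15), in shUTX cells 0.805 (0.702 to 0.922) and 0.952 (0.838 to 1.08), and in shNRF2 cells 0.883 (0.790 to 0.987) and 1.02 (0.924 to 1.13). The test of the difference in response to exposure, fitted over both agents, gave -0.63 ± 0.16 for shUTX against shControl cells (adjusted p = 0.0130) and -0.51 ± 0.16 for shNRF2 against shControl cells (adjusted p = 0.0302). In shMLL1 cells the difference of -0.42 ± 0.16 did not pass (adjusted p = 0.194).

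KIF24 was the 1 gene of the 6 called in these tests, where 14.4% of all entries were called for shUTX (6.8% higher and 7.59% lower), 16.6% for shNRF2 (8.02% higher and 8.59% lower) and 0.648% for shMLL1. For shUTX and for shNRF2, 1 call among 6 genes is near the share over all entries. The chromosome 9 stretch, which holds KIF24, had 1.96% of its 102 entries called lower for shUTX and for shNRF2 alike. Calls higher in that stretch were 12.75% for shUTX and 14.71% for shNRF2. The model left 3 residual degrees of freedom and all 3 tests share the untreated shControl library, in which KIF24 was lower than in any other untreated library. DESeq2 did not call them (adjusted p = 0.0923 for shUTX and 0.165 for shNRF2). The shUTX call was lost without the H2O2 shUTX library (adjusted p = 0.0582) and the shNRF2 call without 4 of the 8 exposed libraries (the H2O2 and CeO2 libraries of shUTX and shNRF2, adjusted p = 0.0508 to 0.0747). UBAP1, which overlaps KIF24, had differences of 0.13 (adjusted p = 0.556) and 0.01 (adjusted p = 0.961). The other 5 genes had differences between -0.0024 and 0.30 in all 3 tests, of which TRIP13 in shUTX cells was the highest (0.30 ± 0.12, adjusted p = 0.101).

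Across the 12 libraries the levels of TRIP13 and RAD1 ran together (Pearson r = 0.96 of log2 CPM, given as a description). The points share derivatives, library depth and scaling. SKP2, on the same chromosome, had r = 0.61 with TRIP13 and 0.50 with RAD1, and KIF24 and MELK ran in opposite directions (r = -0.68). Compared with 298 coding entries of the matched stretches, the profiles most like TRIP13 were those of GOLPH3 (r = 0.98), LPCAT1 (0.98) and TARS1 (0.97), and the same 3 were most like RAD1 (0.96, 0.97 and 0.97). All lie on chromosome 5. For SKP2 they were RETREG1 (0.95), ANKH (0.90) and IRX2-DT (0.90), also on chromosome 5. For MELK they were ZCCHC7 (0.89), BRIX1 (0.89) and UBE2R2 (0.86), for FANCG FAM174C (0.83), UBE2R2 (0.83) and PAIP1 (0.82), and for KIF24 PDZD2 (0.74), SLC1A3 (0.70) and RGP1 (0.69).

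A list of 26 other genes in the matched stretches, drawn up for cell division, replication and repair, was read for comparison. It also holds genes with other main roles, such as DROSHA and NUP155, and its counts include them. Of the 26, 25 passed the filter and FBXL7 did not. In shMLL1 cells 8 were called lower and 1 higher, with a median log2 change of -0.09, where 5.38% of all entries were called higher and 6.84% lower. The matched stretches, from which the list comes, had 6.78% of entries called higher and 21.5% lower, with the same median of -0.09. The cyclin-dependent kinase inhibitor CDKN2B fell most, by 1.28 ± 0.10 (adjusted p = 1.04e-06), and CDKN2A, which codes for another inhibitor, fell by 0.58 ± 0.15 (adjusted p = 0.0187). Both lie on chromosome 9. The other 6 lie on chromosome 5, where 6 of 8 listed genes were called lower: among them were the cohesin loader NIPBL (-0.65), the centrosome gene CEP72 (-0.56), WDR70 (-0.69), DROSHA (-0.45), which processes microRNA precursors, and TENT4A (-0.34). TERT, the catalytic subunit of telomerase, was higher by 0.60 ± 0.17 (adjusted p = 0.0289).

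In shUTX cells 4 of the 25 were called higher, namely CDKN2B (0.71), the nuclear pore gene NUP155 (0.51), TERT (0.89) and DROSHA (0.21). Another 3 were called lower, FZR1, an activator of the anaphase-promoting complex (-0.35), the kinase gene STK11 (-0.33) and HMG20B (-0.35), all on chromosome 19. Over all entries 12.6% were called higher and 13.7% lower, so 4 and 3 of 25 are near the background. In shNRF2 cells UBE2R2, a ubiquitin-conjugating enzyme of the CDC34 kind that works with SCF ligases, was called lower (-0.50 ± 0.08, adjusted p = 0.00171) and none higher, where 2.56% and 2.78% of all entries were. Neither H2O2 nor CeO2 gave a call among the 25, with medians of -0.10 and -0.11. Unadjusted p was under 0.05 for 8 of them after H2O2 and 3 after CeO2, and DESeq2 and limma-voom called none. In the tests of a different response to exposure, 7 were called higher and 1 lower for shUTX against shControl cells and 9 higher and 2 lower for shNRF2, with medians of 0.21 and 0.28, all set against the same shControl libraries. Over all entries 6.8% were called higher and 7.59% lower for shUTX, and 8.02% and 8.59% for shNRF2. Over the matched stretches as a whole, 19.86% of entries were called higher and 2.80% lower for shUTX, and 23.13% and 3.97% for shNRF2. For shMLL1 none was called by edgeR, DESeq2 or limma-voom, with 6 at an unadjusted p under 0.05.

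**Figure D5:**
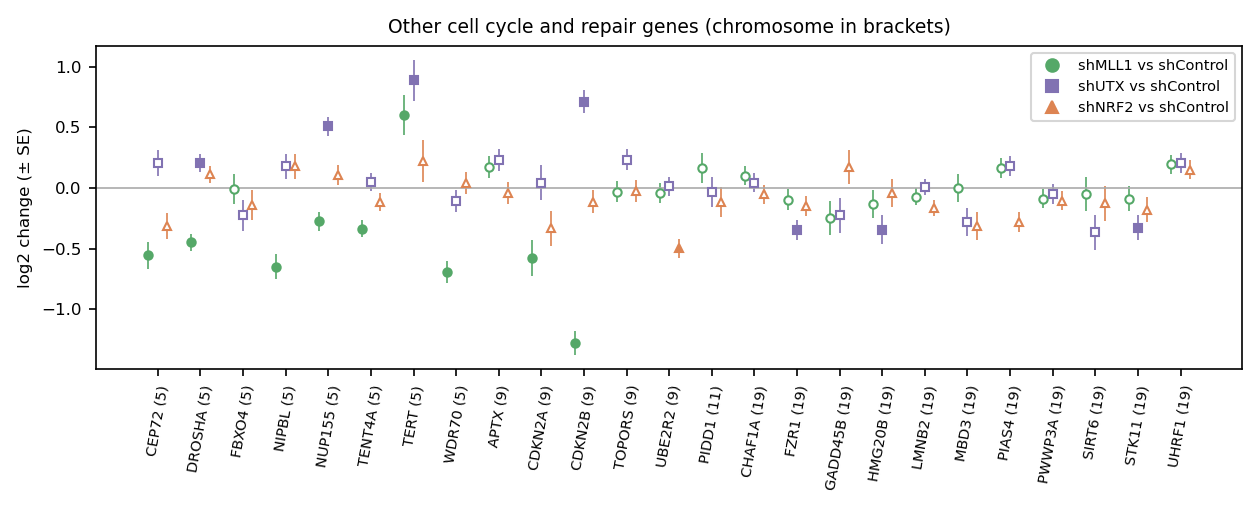
Log2 change (y axis, ± SE) of the 25 genes of the comparison list that passed the filter, with their chromosome in brackets (x axis), for shMLL1 (circles), shUTX (squares) and shNRF2 (triangles) against shControl cells. Filled symbols passed the threshold. Most chromosome 5 genes lie below 0 in shMLL1 cells, and CDKN2B lies at -1.28 in shMLL1 and 0.71 in shUTX cells.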

How the data were processed

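Total RNA of 12 HaCaT samples was sequenced. Per the submitters' processing notes, reads were handled with HTSeq 0.11.1, HISAT2 2.2.1, Trimmomatic 0.39 and SAMtools 1.12 on GRCh38; the sources used here do not give annotation, settings or use of strand. The authors deposited raw read counts per Ensembl gene in 2 tables; the untreated libraries stand in both, and the copy beside H2O2 was used (1 cell differs). Gene coordinates and exon lengths came from GENCODE 29 (GRCh38).

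Names were read in stretches found with a 2-state model of whether panel genes reached 30 CPM, keeping runs of 4 or more such genes whose median was 150 CPM or more. This rule was set after seeing the data; a run of 3 genes on chromosome 6 was left out. The 6 genes and the lists were chosen with earlier results of these data known.

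Entries that reached 1 CPM in 3 or more libraries were fitted with edgeR 4.0.16 (R 4.3.3; TMM, quasi-likelihood, two-sided, Benjamini-Hochberg over the 10800 entries, threshold 0.05), with derivative and treatment as additive terms (6 residual degrees of freedom), or with a term for the response to exposure of each knockdown (exploratory). CPM values are TMM-scaled. Alternatives included DESeq2 1.42.0 and limma-voom (limma 3.58.1). The code was tested on simulated counts. All 6 genes were followed in every comparison, by name or within a stated range. At most 8 called genes of the comparison list and the 3 most similar profiles for each gene were named. Ratios of 2 libraries have exact conditional binomial 95% intervals, and a count of 0 allows up to 3 counts; both cover counting error only.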

Additional observations from a re-analysis of the deposited data

Results flagged for a closer look

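The response of KIF24 to exposure differed between knockdown and shControl cells by -0.6272 on the log2 scale for shUTX and -0.5101 for shNRF2, in a test of the difference itself. With libraries scaled to the chromosome 9 stretch the values were -0.80 and -0.66, and with a smooth trend of level with exon length removed -0.80 and -0.67. The untreated shControl library, with 72.7 CPM of KIF24 and the lowest TMM factor (0.914), enters both values, and its part in them was not tested.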

How the results depend on the processing

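The fall of TRIP13, SKP2 and RAD1 in shMLL1 cells kept its call under RLE, upper-quartile and plain scaling, both other filters, DESeq2, limma-voom, a fit to the compared libraries, the other table and each of 12 omissions; it was lost when libraries were scaled to the chromosome 5 stretch. The 2 alternatives scaling to the stretch and removal of a smooth trend with exon length were chosen after seeing the data. The labels carry no replicate numbers, so no replicate block was added; the additive fit already compares derivatives within treatments and treatments within derivatives. The lowest count of the 6 genes in a library was 402, for KIF24; how much depth limits its precision was not tested. Where a cause is not named, the cause was not tested.

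Counts of called entries that moved by over 1.5 times were as follows. With plain totals, CeO2 gave 0 and the shMLL1 exposure response 141. With no filter, shNRF2 against shControl gave 907, H2O2 651, CeO2 543 and the shMLL1 exposure response 218. A 5 CPM filter gave 0 for CeO2 and 33 for the shMLL1 exposure response. DESeq2 gave 152 for H2O2, 44 for CeO2, and 676 and 686 for the shUTX and shNRF2 exposure responses, and limma-voom 0 for CeO2. In fits to the compared libraries, shUTX gave 1427 and shNRF2 154 against shControl, shUTX against shMLL1 2955, shNRF2 against shMLL1 1991 and against shUTX 4351, H2O2 3 and CeO2 0. Omitting 1 library gave ranges that did not leave 1.5 times the count for shUTX against shControl and the shNRF2 exposure response, and did for the others: 667 to 1941 for shMLL1, 1931 to 3088 for shUTX and 257 to 830 for shNRF2 against shControl, 1169 to 2989 for shUTX and 598 to 2251 for shNRF2 against shMLL1, 1652 to 3604 for shNRF2 against shUTX, 0 to 43 for H2O2, 0 to 29 for CeO2, and 4 to 676, 822 to 2102 and 1317 to 2327 for the shMLL1, shUTX and shNRF2 exposure responses.

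Scaled to the chromosome 5 stretch, RAD1 between shNRF2 and shMLL1 cells (-0.021), called in the main fit, changed sign. So did SKP2 between shUTX and shMLL1 cells (-0.24), which was not called in the main fit. All other changes of sign were seen in values that had not passed the threshold. With plain totals these were KIF24 after H2O2 (0.025) and the exposure responses of MELK (-0.034), TRIP13 (-0.054) and SKP2 (-0.0015) in shMLL1, of MELK (-0.038), FANCG (-0.091) and SKP2 (-0.105) in shUTX, and of MELK (-0.047), TRIP13 (-0.028), FANCG (-0.083) and RAD1 (-0.0057) in shNRF2. The SKP2 response in shNRF2 was 0.016 with RLE and with DESeq2, and FANCG in shUTX against shControl was 0.026 with the length trend removed. Omissions gave ranges across 0 for KIF24 after CeO2 (-0.0052 to 0.19), after H2O2 (-0.17 to 0.024), in shMLL1 against shControl (-0.26 to 0.0049) and in shUTX against shMLL1 (-0.175 to 0.0020), and for the exposure responses of MELK (-0.028 to 0.16) and TRIP13 (-0.016 to 0.11) in shMLL1 and SKP2 (-0.054 to 0.053) in shNRF2.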
